A study of Mus musculus with 8 samples.

Results

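The 3 mouse miRNAs mmu-miR-1949, mmu-miR-5099 and mmu-miR-677-3p, about which little is known, were followed in skin with and without keratinocyte loss of Ncstn. They were picked by name, because an earlier look at these arrays had placed them among the miRNAs with higher signal in the mutant skin. They are 3 of the 1881 mouse miRNAs on the array, and 3 of the 222 that were bright enough to be compared. Their difference between the groups is therefore a description, given with its spread and without a test. The values that chose them are the differences between the group means given below for each.

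There were 4 NcstnΔKC and 4 normal skin samples from male mice, all of 1 genotype, Ncstn flx/flx with 1 copy of Krt14 CreER. Nicastrin, the product of Ncstn, is part of γ-secretase, an enzyme that cuts Notch within the membrane, and Krt14 CreER is a Cre recombinase driven by the promoter of a basal keratinocyte keratin and switched on by tamoxifen. From 8 weeks of age the NcstnΔKC mice were gavaged with tamoxifen at 20 mg per kg per day for 5 days and then every 10 days, the normal mice were given an equal volume of corn oil, and skin was excised at 16 weeks. Tamoxifen and loss of Ncstn thus differ together and cannot be told apart. The array measures miRNAs only, so neither Ncstn nor the host transcripts of these miRNAs were measured. Whether each sample is a different mouse is not given by the labels, and p-values measure no more than how these samples scatter, in part perhaps technically.

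A miRNA is cut from a hairpin in a longer transcript, and 1 arm of the hairpin, or each of them (named 5p and 3p), is loaded into an Argonaute protein. Bases 2 to 8 of the mature miRNA, the seed, then pair with target mRNAs. Many miRNA hairpins lie inside a host gene and can be made from its transcript, and others are transcribed on their own.

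In the RefSeq annotation of GRCm38.p6, Mir677 lay within the span of Atp5b, which encodes the beta subunit of the mitochondrial ATP synthase. The same span held the small nucleolar RNA gene Snord59a, and the nearest other protein-coding gene, Baz2a, was 6.01 kb away. Mir1949 lay within Snhg4, a long noncoding RNA gene that hosts the small nucleolar RNA gene Snora74a, and the nearest protein-coding gene, Matr3, which encodes a nuclear matrix protein, was 7.52 kb away. Mir5099, on chromosome 12, lay in no annotated gene. Its nearest neighbour was the noncoding Gm40394 at 66.7 kb. None of the 3 hairpins had another miRNA gene within 10 kb. The spans were compared without regard to strand or exons.

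Both arms of the miR-677 hairpin are on the array, and they are shown because only the 3p arm was detected. RefSeq places the 5p arm at chr10:128085291-128085312 and the 3p arm at chr10:128085335-128085360, both on the plus strand of GRCm38.p6. Capitals mark the seed.
miR-677-5p: uUCAGUGAugauuagcuucuga
miR-677-3p: gAAGCCAGaugccguuccugagaagg
Of the 1881 array miRNAs, 1608 had a mature RefSeq sequence, and 0 of the others shared the seed of either arm.

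The hairpins of miR-677 (chr10:128085286-128085363) and miR-5099 (chr12:36816205-36816278), both on the plus strand, are shown with the stretch complementary to the longer array probe in capitals, because the probes read only that stretch.
Mir677: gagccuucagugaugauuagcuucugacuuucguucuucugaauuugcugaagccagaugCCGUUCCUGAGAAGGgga
Mir5099: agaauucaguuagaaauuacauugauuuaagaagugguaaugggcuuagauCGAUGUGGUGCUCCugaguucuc
The stretch spans bases 61 to 75 of Mir677, which is the end of the 3p arm and leaves out its seed, and bases 52 to 65 of Mir5099. The predicted folding energy was -17.5 kcal per mol for Mir677, with 64.1% of its bases paired, and -26.6 kcal per mol for Mir5099, with 78.4% paired. Per base, the fold of Mir677 was among the weak ones: only 1.99% of 1005 mouse hairpins were weaker, against 30.8% for Mir5099.

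Each of the 3 miRNAs has a pair of probes that differ by 1 base in length, and each probe is printed in 15 spots. The longer probes of miR-5099 and miR-677-3p are shown with that extra base in capitals, because the paired probes gave very different signals.
miR-5099 14-base probe: ggagcaccacatcG
miR-677-3p 15-base probe: ccttctcaggaacgG
The probes of miR-1949 are longer, at 17 and 18 bases, where the median longest probe of the tested miRNAs has 17. Their mean GC content was 42.8%, against 62.9% for miR-5099, 58.6% for miR-677-3p and a median of 51.7% over tested miRNAs. The longest run of bases shared with a probe of another miRNA was 8 for miR-1949 (5 miRNAs, of which let-7d-5p was detected), 8 for miR-5099 (2 miRNAs, neither detected) and 9 for miR-677-3p (miR-1903, not detected).

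Between 198 and 273 miRNAs were detected per array, where a probe counts as detected if at least 50% of its kept spots were well above background. Signals were divided by a per-array scaling value of 922 to 1314 units, the 75th percentile over 301 probes detected on all 8 arrays, and summed over the probes of a miRNA. The scaling value was 1215 to 1314 units on normal arrays and 922 to 1160 on NcstnΔKC arrays. Every NcstnΔKC array was thus dimmer by this measure, and scaling raised its signals relative to the normal arrays. Values below a floor of 0.0318 of the scaling value were set to it, which is -4.97 on the log2 scale. No spot was saturated, and negative control spots averaged 12.6 to 17.2 units. The 8 arrays lay on 1 slide with the normal samples in one row and the NcstnΔKC samples in the other, so group and slide row cannot be told apart. In both rows the replicate number was also the slide column, so an order over replicates cannot be told apart from slide position.

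**Figure D1:**
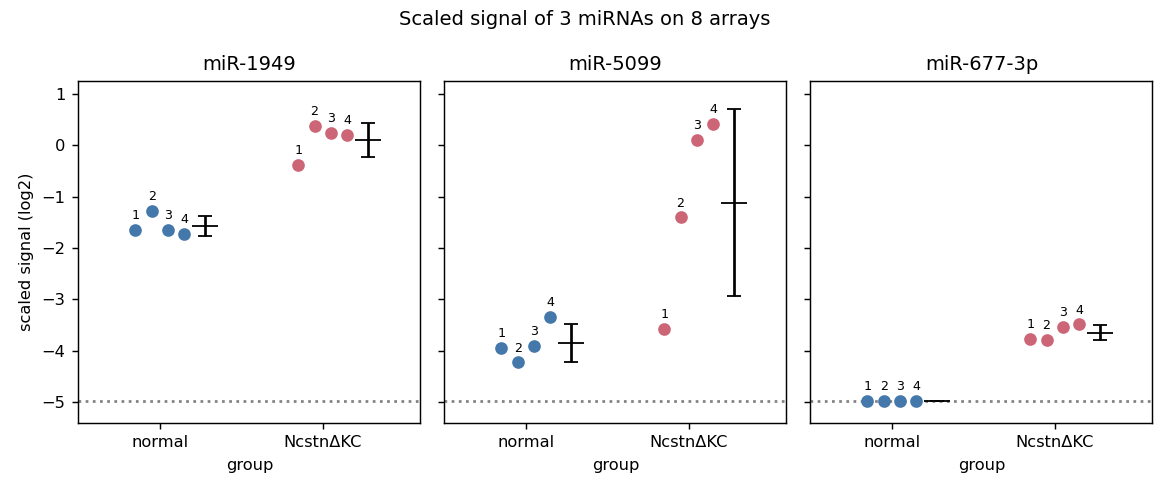
Scaled signal (log2) of miR-1949, miR-5099 and miR-677-3p on each array, by group, with the replicate number above each point and the mean ± SD (n = 4) beside it. The dotted line is the floor at -4.97, where all 4 normal arrays of miR-677-3p lie, and NcstnΔKC 1 of miR-5099 sits among the normal arrays.

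miR-1949 was above background in both probes on every array, and its groups did not overlap. Its scaled log2 signal was -1.65, -1.28, -1.64 and -1.72 on normal arrays 1 to 4, and -0.38, 0.37, 0.23 and 0.20 on NcstnΔKC arrays 1 to 4. Every NcstnΔKC array was above every normal array, and the lowest NcstnΔKC array was 0.90 above the highest normal one. Among the normal arrays replicate 2 was the highest, and among the NcstnΔKC arrays replicate 1 was the lowest. The group means were -1.57 ± 0.20 and 0.11 ± 0.33 (SD, n = 4 each), a difference of 1.68 ± 0.19 (SE), or 3.20-fold. Groups that did not overlap, with NcstnΔKC higher, were seen for 13.5% of the 222 tested miRNAs, and groups that did not overlap in either direction for 36.9%. The spread of miR-1949 within a group was ordinary, at rank 85 of 222 in the NcstnΔKC arrays and rank 156 in the normal arrays, counted from the largest SD.

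Both probes of miR-1949 were well above background in every kept spot of all 8 arrays. The unscaled 18-base probe read 306, 377, 297 and 297 units on the normal arrays and 654, 881, 912 and 911 on the NcstnΔKC arrays. The 17-base probe was dimmer, at 97.5 to 124 units and 237 to 335 units, and ordered the groups the same way. Unscaled, the group means differed 2.62-fold in the 18-base probe and 2.83-fold in the 17-base probe, so the 2 probes gave nearly the same size. The longer probe was 2.92 to 3.06 times as bright as the shorter on normal arrays and 2.73 to 2.85 times on NcstnΔKC arrays, ranges that do not overlap. This drift in the ratio is small beside the difference between the groups. In the series matrix, the authors' processed log2 values, miR-1949 ran from 6.87 to 7.07 on normal and from 8.61 to 9.32 on NcstnΔKC arrays, a difference of 2.12 ± 0.16 (SE, n = 4 each).

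**Figure D2:**
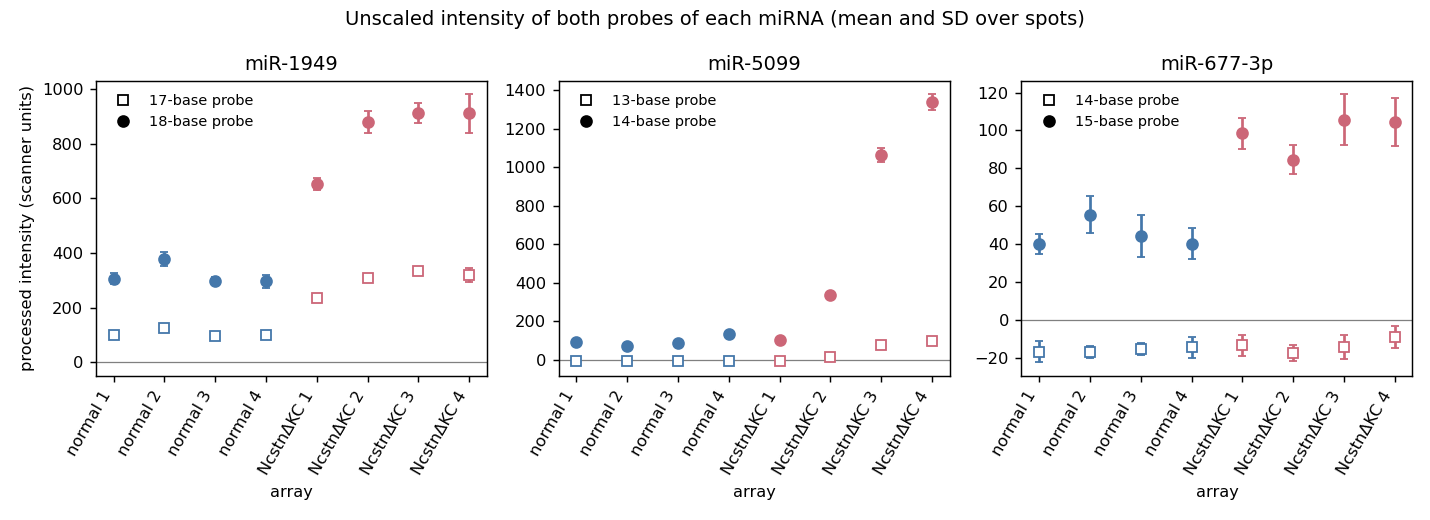
Unscaled processed intensity in scanner units (mean and SD over the spots of a probe) for the shorter (open squares) and longer (filled circles) probe on each array, normal in blue and NcstnΔKC in red. Both probes of miR-1949 are bright, the 13-base probe of miR-5099 is near 0 except on NcstnΔKC 3 and 4, and the 14-base probe of miR-677-3p is below 0 on all 8 arrays.

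miR-5099 was high in some NcstnΔKC samples and not in others. Its scaled log2 signal was -3.94, -4.22, -3.91 and -3.34 on normal arrays 1 to 4, and -3.58, -1.40, 0.10 and 0.42 on NcstnΔKC arrays 1 to 4. NcstnΔKC 1 lay below normal 4, so the groups overlapped, and 3 of 4 NcstnΔKC arrays were above all normal ones. The group means were -3.86 ± 0.37 and -1.12 ± 1.82 (SD, n = 4 each), a difference of 2.74 ± 0.93 (SE), or 6.68-fold. Without NcstnΔKC 1 that difference was 3.56. The highest NcstnΔKC array was 16.0 times the lowest, against 1.84 times among normal arrays. The NcstnΔKC SD of miR-5099 was the largest of the 222 tested miRNAs, whose median was 0.26, while its normal SD ranked 88.

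Nearly all of the signal came from 1 probe. The 14-base probe was well above background in every kept spot, with 91.3, 72.6, 87.2 and 134 units on the normal arrays and 104, 336, 1061 and 1335 on the NcstnΔKC arrays. The CV over the spots of this probe within an array was 3.12% to 13.9%, which covers spot noise only and not differences in labelling or hybridisation between arrays. The 13-base probe, 1 base shorter, was below 0 on all normal arrays and on NcstnΔKC 1. It read 12.7 units on NcstnΔKC 2, 77.0 on NcstnΔKC 3 and 96.8 on NcstnΔKC 4, and its spots were well above background on replicates 3 and 4 only. On those 2 arrays the longer probe was 13.8 times as bright as the shorter, and NcstnΔKC 4 was above NcstnΔKC 3 in both probes. In the series matrix NcstnΔKC 1 was level with the highest normal array, both at 4.83, and the difference was 2.38 ± 0.82 (SE, n = 4 each).

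The summed signal of white blood cell miRNAs was also highest on NcstnΔKC 3 and 4. Of 8 such miRNAs on the array, 7 were detected on at least 1 array and 6 were tested; miR-511-5p was detected on none. Their summed scaled signal was 2.0, 2.14, 2.54 and 2.80 on the normal arrays and 3.15, 3.87, 7.65 and 9.44 on NcstnΔKC arrays 1 to 4. miR-223-3p alone made up 51.6% to 71.2% of the sum on each array, and without it the NcstnΔKC sums were 1.53, 1.77, 2.46 and 2.72, against 0.703 to 1.02 on normal arrays. Single members did not all follow the order of the sum: among NcstnΔKC arrays miR-142a-3p and miR-150-5p were lowest on replicate 2, and miR-511-3p was nearly level on replicates 2 to 4, at -0.54, -0.42 and -0.42. In limma over the 222 tested miRNAs, 3 of the 6 were higher and 0 lower at an adjusted p under 0.05, beside a background of 14.9% higher and 27.9% lower, and their median difference was 1.20 against -0.23 over all tested. These were miR-511-3p, made from the gene of a macrophage mannose receptor (5.11-fold, adjusted p 0.00238 in limma), miR-142a-3p, a blood cell miRNA (2.86-fold, adjusted p 0.00792 in limma), and miR-155-5p, induced in activated immune cells (2.39-fold, adjusted p 0.00402 in limma). The other tested members did not pass: miR-223-3p, a myeloid miRNA, had a difference of 1.15 ± 0.44 (SE), miR-150-5p, a lymphocyte miRNA, 0.89, and miR-342-3p -0.00. Under the other scalings 3 or 4 of the 6 were higher and 0 lower, with miR-150-5p among them after cyclic loess and normexp. On the software's totals, described below, 2 were higher, and the differences of miR-155-5p and miR-150-5p were -1.14 and -1.49. On some arrays those 2 totals held that of another miRNA. In bulk skin, more cells of a type and more RNA per cell cannot be told apart, and the part of these cells in the miR-5099 signal was not tested. The order of replicates 1 to 4 is also the order of the slide columns, and the sum rose along it in both groups. So did miR-342-3p, from -2.10 to -1.51 on normal arrays and from -2.07 to -1.52 on NcstnΔKC arrays.

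**Figure D3:**
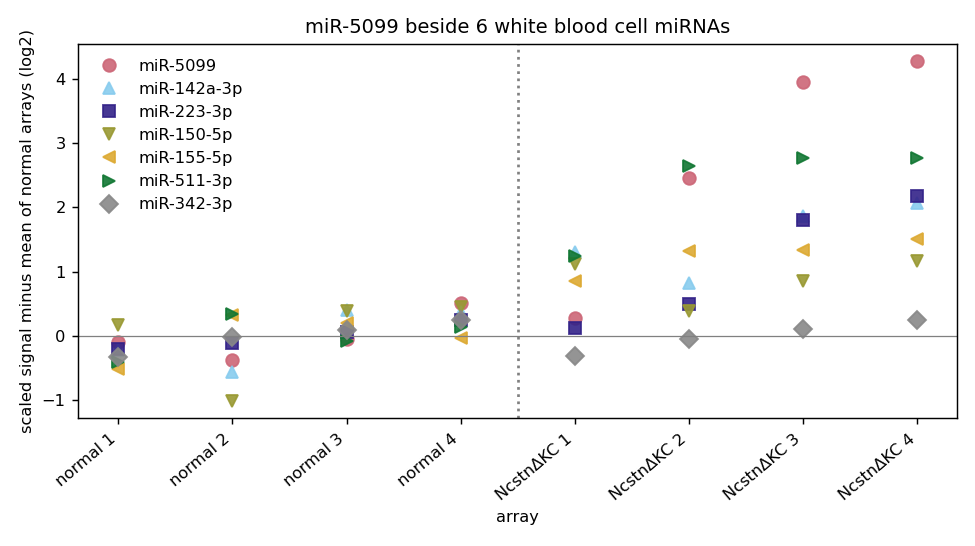
Scaled signal of miR-5099 and of the 6 tested white blood cell miRNAs on each array, as the log2 difference from the mean of the 4 normal arrays. miR-5099, miR-223-3p and miR-142a-3p are highest on NcstnΔKC 3 and 4, while miR-342-3p stays near 0 but rises from replicate 1 to 4 in both groups.

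The summed signals of the other cell type lists did not follow that order, and their calls are read beside the background of 14.9% higher and 27.9% lower. Striated muscle miRNAs (5 of 5 tested) summed to 17.6 to 84.6 on normal and 6.44 to 38.6 on NcstnΔKC arrays, with 1 lower and 0 higher. The 7 keratinocyte and epithelial miRNAs summed to 22.5 to 27.4 and 22.7 to 30.3, so the defining markers of skin epithelium were present in every sample, with 4 lower and 0 higher. The 4 lower calls were kept with quantile scaling, cyclic loess, normexp, no scaling, the software's totals and the series matrix. With the percentile over all probes 0 of these 7 were called, and 1 was higher after quantile scaling, cyclic loess or normexp and 2 in the series matrix. Red blood cell miRNAs (2 of 3 tested, miR-144-3p detected nowhere) summed to 0.688 to 1.84 and 1.05 to 2.83, with 1 lower. The single muscle and red blood cell calls were each lost with quantile scaling, cyclic loess, normexp, the percentile over all probes, the software's totals and the series matrix, and without scaling 4 muscle miRNAs were lower. Endothelial miRNAs (1 of 2 tested) summed to 2.38 to 3.08 and 2.75 to 3.35, with none called. Their part in the signal of the 3 miRNAs was not tested.

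miR-677-3p was dim throughout, and with the floor used here its difference on the summed scale is only bounded. All 4 normal arrays were at the floor of -4.97, while NcstnΔKC arrays 1 to 4 read -3.77, -3.78, -3.54 and -3.49. The NcstnΔKC mean was -3.64 ± 0.15 (SD, n = 4), 1.33 above the floor, so the summed values differed at least 2.51-fold. With the floor 0.5 times as high the normal arrays lay above it, and the difference was 1.81 ± 0.19 (SE). The sum takes in the 14-base probe, which read negative on all 8 arrays and lowers the dim normal values most in proportion. The bound does not hold under each treatment: the difference was 1.14 for the brightest probe, 1.01 in the series matrix and 0.38 with normexp. It was 1.74 with the percentile over all probes and 2.08 with cyclic loess. The NcstnΔKC arrays were tightly grouped, at rank 182 of 222 by SD. By the share of spots, miR-677-3p was detected on all 4 NcstnΔKC arrays and on 1 normal array, replicate 2. The scanner software's own flag instead called it detected on all 8.

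The signal of miR-677-3p came from the 15-base probe alone. The 14-base probe lay between -17.6 and -9.05 units, with 0 spots above background on any array. The 15-base probe read 40.1, 55.6, 44.3 and 40.2 units on the normal arrays, where 2 of 13, 10 of 15, 4 of 15 and 2 of 15 kept spots were well above background. It read 98.4, 84.6, 105.8 and 104.5 units on the NcstnΔKC arrays, where every kept spot was. The groups did not overlap in this probe, whose means were 45.1 ± 7.31 and 98.3 ± 9.70 units (SD, n = 4 each). The ratio was 2.19-fold unscaled and 2.63-fold after scaling. In the series matrix the values were 3.67 to 3.75 and 4.68 to 4.76, a difference of 1.01 ± 0.02 (SE, n = 4 each).

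The other arm of the hairpin, miR-677-5p, was not well above background anywhere. It has 4 probes of 18 to 21 bases, and 0 spots of any of them passed on any array. Its 21-base probe read 5.56 to 18.1 units on normal and 4.84 to 16.9 on NcstnΔKC arrays. It was not tested, and no fold is given.

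The scanner software also writes 1 total per miRNA, and for miR-677-3p that total went the other way. It was 223, 236, 200.4 and 252 units on the normal arrays and 109, 112, 169.5 and 224 on the NcstnΔKC arrays. The software's total for the 15-base probe alone was 8.49, 11.8, 9.40 and 8.53 units and 20.9, 17.9, 22.4 and 22.2 units, again higher in every NcstnΔKC array. On 8 of 8 arrays the total of miR-677-3p equalled its own 15-base probe total plus the total of miR-6769b-5p, with a largest remainder of 0.0009 units. miR-6769b-5p, which precedes miR-677-3p in name order among the detected miRNAs, had totals of 214, 224, 191 and 244 units and then 88.4, 94.2, 147 and 202. On the software's totals the difference of miR-677-3p was -0.49, which is the sign of the added miRNA and not of its own probe.

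The same sum was found for miR-5099. On 6 of 8 arrays, all 4 normal ones and NcstnΔKC 1 and 2, its total equalled its 14-base probe total plus the total of miR-504-3p, with a largest remainder of 0.0001 units. On NcstnΔKC 3 and 4, where the 13-base probe was above background, the total was the sum of its own probes. The totals were 74.1, 69.9, 75.4 and 94.4 units on the normal arrays and 70.4, 95.1, 241 and 304 on the NcstnΔKC arrays. The miR-504-3p total made up most of this on the normal arrays, at 54.5 to 66.1 units. On the totals the difference of miR-5099 was 1.08 in place of 2.74. For miR-1949, whose probes were both detected everywhere, the total was its own sum on all 8 arrays.

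**Figure D4:**
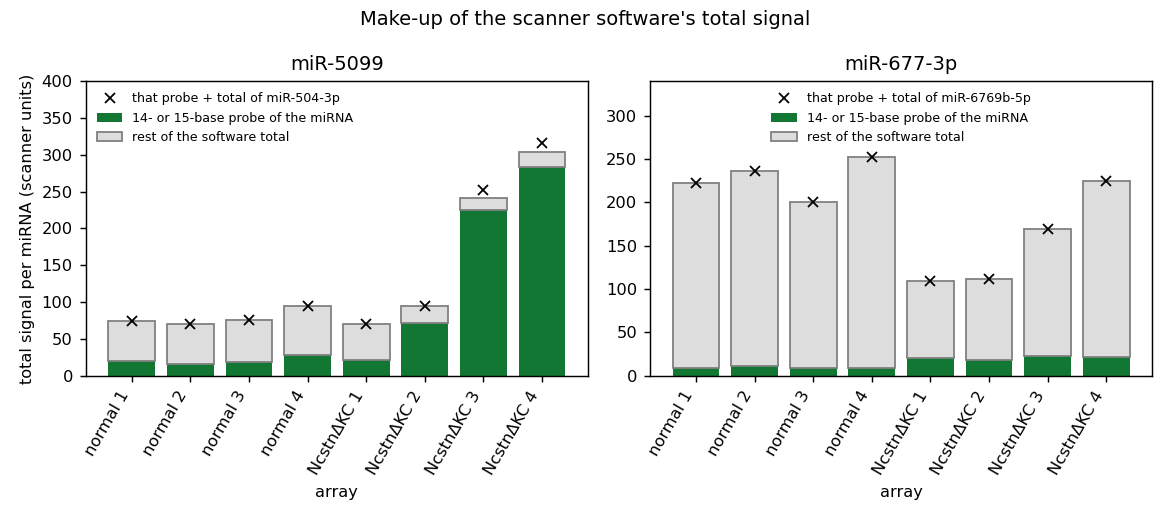
The scanner software's total per miRNA on each array (bars, scanner units), split into the miRNA's own longer probe (green) and the rest (grey), with crosses at that probe plus the total of the preceding miRNA. Crosses meet the bar tops on 8 of 8 arrays for miR-677-3p and on 6 of 8 for miR-5099; they lie above the bars on NcstnΔKC 3 and 4 of miR-5099.

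The size of each difference depended on how the signals were treated, as the plot of differences by setting shows. Values for miR-1949 lay between 1.34 and 2.55 and those for miR-5099 between 1.08 and 3.60, all higher in NcstnΔKC. For miR-677-3p the range was -0.49 to 2.08, and only the software's totals gave a negative value.

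**Figure D5:**
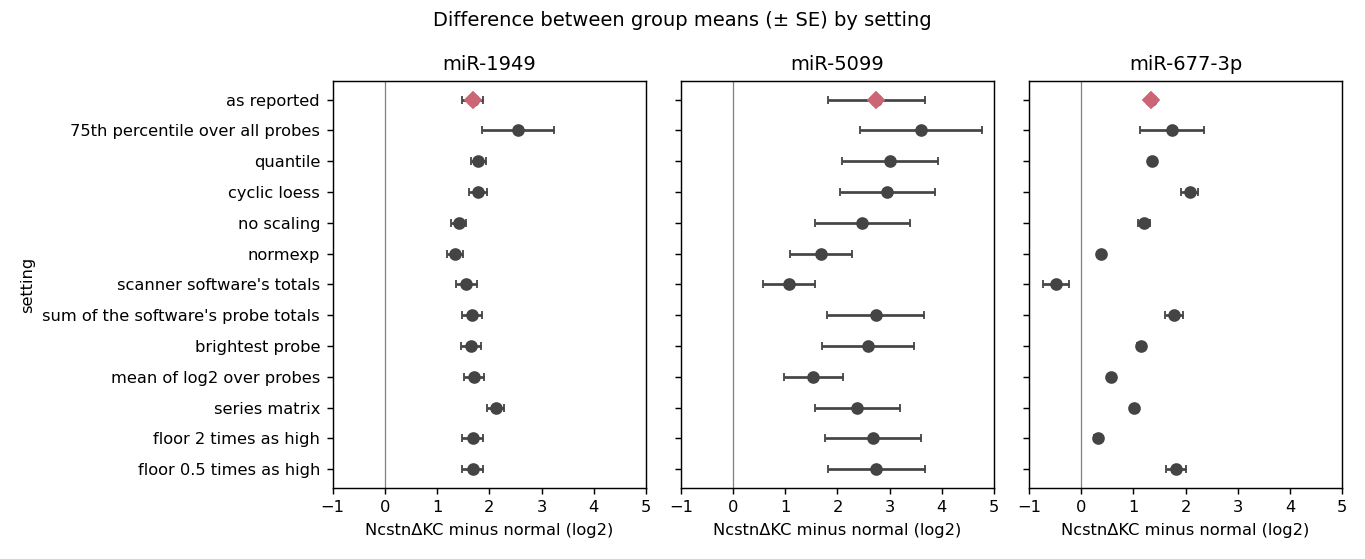
Difference between group means, NcstnΔKC minus normal on the log2 scale, with its SE (n = 4 each), for the values as reported (red diamonds) and 12 other treatments of the signals. Points right of the grey line at 0 are higher in NcstnΔKC; only miR-677-3p on the scanner software's totals lies left of it, at -0.49.

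The tested miRNAs most like each of the 3 were found by Pearson's r of scaled log2 signal over the 8 arrays. These r values are a description without a test, since the 8 points share 1 scaling and fall into the 2 groups. miR-1949 was closest to miR-21a-5p (r = 0.995), an abundant miRNA induced in many inflamed and growing tissues, then miR-20b-5p and miR-20a-5p (both 0.990), which belong to the miR-17 family. After each group's mean was subtracted, its nearest were miR-362-3p (0.970), miR-20a-5p (0.942) and miR-25-3p (0.938). The low value on NcstnΔKC 1 and the high value on normal 2 were shared by miR-20a-5p, at 0.45 and 0.07 on those arrays. The other NcstnΔKC arrays of miR-20a-5p were at 0.92 to 0.98 and the other normal arrays at -0.49 to -0.36.

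miR-5099 was closest to miR-223-3p (r = 0.959), miR-15b-5p (0.937) and miR-511-3p (0.915). Within groups its nearest were miR-188-5p (0.936), miR-223-3p (0.931) and miR-6769b-5p (0.921). miR-223-3p read 0.37, 0.46, 0.64 and 0.83 on the normal arrays and 0.70, 1.07, 2.37 and 2.75 on NcstnΔKC arrays 1 to 4, so NcstnΔKC 1 again overlapped the normal arrays. miR-188-5p kept that order within NcstnΔKC, from -3.00 on replicate 1 to -1.47 on replicate 4, although its group mean was not higher, with a difference of -0.75 ± 0.33 (SE).

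For miR-677-3p, with all normal arrays at the floor, r rests on the NcstnΔKC arrays and the step between groups. Its nearest were miR-21a-5p (0.982), miR-17-3p (0.975) and miR-1949 (0.964). With group means subtracted, only 4 points vary, and the nearest were miR-223-3p (0.963), miR-7118-5p (0.910) and miR-6769b-5p (0.899).

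miRNAs numbered near the 3 were named at about the same time. In the 3 number blocks together, with the 3 miRNAs left out, 16 of 194 were tested, and limma called 0 higher and 7 lower at an adjusted p under 0.05, while 9 did not pass and 4 of the 16 had a positive difference. The background over all 222 tested miRNAs was 14.9% higher and 27.9% lower. Apart from miR-706, the lower calls of the blocks passed the detection filter through the normal arrays alone, so their direction is tied to that filter. The median difference was -0.69 in the miR-677 block (5 tested, 3 lower), -0.44 in the miR-1949 block (5 tested, 2 lower) and -0.45 in the miR-5099 block (6 tested, 2 lower), beside -0.23 over all tested. With the percentile over all probes these medians were 0.18, 0.43 and 0.42.

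In the miR-1949 block, miR-1897-3p was 4.04-fold lower in NcstnΔKC (adjusted p 0.00238 in limma), and miR-1906, detected on 2 NcstnΔKC arrays, fell by 0.44. miR-1897-3p was not detected on any NcstnΔKC array, though its values there lay above the floor. Its difference of -2.01 ranged from -2.32 in the series matrix to -0.76 with normexp. In the miR-677 block, miR-671-5p fell by 1.45, miR-669p-3p by 1.03 and miR-706 by 0.69. miR-671-5p and miR-669p-3p were each detected on 1 NcstnΔKC array, and miR-706 on every array. In the miR-5099 block, miR-5112, not detected on any NcstnΔKC array, was at least 2.05-fold lower there. miR-5107-5p, detected on 3 NcstnΔKC arrays, fell by 0.87. These calls turned on the scaling: of the 16, 3 were lower after quantile scaling, 1 after cyclic loess or normexp, 3 in the series matrix, 9 without scaling and 0 with the percentile taken over all probes, and 0 were higher under each of those. On the software's totals 2 were lower and 1 higher. With the percentile over all probes the differences of miR-1906, miR-706 and miR-5107-5p were positive, as was that of miR-1906 after cyclic loess and that of miR-706 after normexp.

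The split of all calls moved in the same way. Among 222 tested miRNAs 33 were higher and 62 lower, which is 42.8% called. The counts were 36 and 32 after quantile scaling, 41 and 30 after cyclic loess, 36 and 28 after normexp, 36 and 36 in the series matrix, 20 and 43 on the software's totals, 24 and 101 without scaling, and 12 and 0 with the percentile over all probes. The median difference of all tested miRNAs, -0.23 as reported, was -0.07 after quantile scaling, -0.49 without scaling and 0.64 with the percentile over all probes. Measured from that median of -0.23, miR-1949 was 1.91 higher in NcstnΔKC and miR-5099 2.97 higher. On the summed scale with this floor, miR-677-3p was at least 1.56 higher.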

How the data were processed

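Agilent 1-colour miRNA arrays of 8 skin samples were read. Per the file headers, Feature Extraction 10.7.1.1 had background-corrected each spot, and the deposited processed intensity per spot was the starting value. The series matrix holds the authors' log2 values per miRNA; its normalization is not stated per the labels or file headers, and its columns correlated with the values used here at r 0.986 to 0.990 across tested miRNAs. Control spots and spots marked as outliers by the software (2223 to 2940 per array) were left out. Spots of a probe were averaged, arrays were divided by the 75th percentile over 301 probes detected on all 8 arrays, probes of a miRNA were summed, a floor of 0.0318 was set and log2 was taken. A miRNA was tested if every array of either group detected it, with limma 3.58.1 in R 4.3.3 (lmFit and eBayes, prior degrees of freedom 2.46), adjusted by Benjamini-Hochberg over 222 miRNAs at a threshold of 0.05. The fit was tested on simulated data. The number of arrays limits the precision.

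The 3 miRNAs and all lists were chosen with earlier results of these data known. miRNAs named in the text were the 3, the other arm of their hairpins, the 3 most correlated tested miRNAs by each of 2 measures, called miRNAs of the number blocks (at most 4 a list by adjusted p) and all tested cell type markers. miR-504-3p and miR-6769b-5p are also named for their totals, chosen after the values were seen. Number blocks were miR-666 to miR-713, miR-1892 to miR-1971 and miR-5046 to miR-5136. Sequences and gene spans were taken from RefSeq (GRCm38.p6); hairpins were folded with ViennaRNA 2.7.2. A software total was called equal to a sum within 0.01% plus 0.01 units. Sequences for miR-1949 are not shown, and the protein-coding gene nearest to Mir5099 is not reported here. Other scalings, background correction, probe summaries, floors, filters, a replicate block and leaving out each array were the alternatives.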

Additional observations from a re-analysis of the deposited data

Results flagged for a closer look

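In a group of 4 arrays, the gap between the most extreme array and its nearest neighbour was taken as a share of the group's range. This share was above the 95% critical value of Dixon's test in 8 cases, which chance gives in about 1 in 20 groups tested. The number of groups screened is not given here, so the 8 cases cannot be set against that rate. For miR-1949, normal 2 stood above the other normal arrays by a gap share of 0.846 in the 17-base probe, 0.884 in the 18-base probe and 0.830 in the series matrix, and NcstnΔKC 1 stood below the other NcstnΔKC arrays by 0.879 in the 18-base probe. NcstnΔKC 1 was also apart, on the low side, for 4 miRNAs named for their likeness: miR-21a-5p at 0.883, miR-20a-5p at 0.878, miR-362-3p at 0.845 and miR-511-3p at 0.925. These values share arrays and are not independent of each other. Without NcstnΔKC 1 the difference of miR-1949 was 1.84 in place of 1.68 and that of miR-5099 was 3.56 in place of 2.74.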

How the results depend on the processing

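miR-1949 and miR-5099 were higher in NcstnΔKC under each alternative run. For miR-1949 the difference of 1.68 became 2.55 with the percentile over all probes, 1.34 with normexp and 2.12 in the series matrix, 9 other alternatives moved it by less than 1 SD, and leaving out 1 array gave 1.59 to 1.84. For miR-5099, 2.74 became 1.08 on the software's totals, 1.54 for the mean log2 over probes and 1.68 with normexp, and leaving out 1 array gave 2.23 to 3.56. For miR-677-3p, 1.33 became -0.49 on the software's totals, 1.77 on the sum of its own probe totals (an alternative added after the data were seen), 1.74 with the percentile over all probes, 2.08 with cyclic loess, 1.21 without scaling, 0.38 with normexp, 1.14 for the brightest probe, 0.57 for the mean log2 over probes, 1.01 in the series matrix, and 0.33 and 1.81 with the floor 2 and 0.5 times as high; leaving out 1 array gave 1.28 to 1.38. With the floor as reported or 2 times as high, the normal arrays of miR-677-3p are at the floor and the size follows it. The number called, 95, was 12 with the percentile over all probes, 63 on the software's totals, 19 with no filter on dim miRNAs and 61 with miRNAs detected on all 8 arrays; leaving out 1 array gave 59 to 94, the lowest without NcstnΔKC 3. Replicate numbers gave no clear pairing over all tested miRNAs. Deviations of same-numbered arrays correlated at -0.44, 0.20, -0.26 and -0.23, and the best NcstnΔKC partner of normal 1 to 4 was 2, 4, 1 and 1. These few correlations cannot exclude pairing or an effect of slide column, and single miRNAs such as miR-342-3p rose with replicate number in both groups. With the replicate number as a block 71 were called. miR-677-5p, not above background, was not followed through the alternatives. In the series matrix, which does hold miR-677-5p, its group means differed by 0.04 ± 0.03 (SE, n = 4 each). Signal over background limits miR-677-3p and the 13-base probe of miR-5099.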

Other observations

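The sums found for miR-5099 and miR-677-3p recurred over the arrays. Of 2217 software totals of detected miRNAs over the 8 arrays, 1647 were a sum of the miRNA's own probe totals and 570 (25.7%) were own probe totals plus the total of the detected miRNA just before it in name order; 0 matched the following miRNA and 0 matched neither. Among the 222 tested miRNAs, 58 (26.1%) had such a total on at least 1 array and 13 on all 8. miR-17-3p, among the nearest of miR-677-3p, held the total of miR-16-5p on all 8 arrays. miR-5112, of the miR-5099 block, held that of miR-511-3p on 6 arrays. On these totals the difference of miR-5112 was 0.87 in place of -1.03 and that of miR-5107-5p was 4.96 in place of -0.87. The cause of these sums was not tested.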
